A study of Mus musculus with 33 samples.

Results

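The pregnancy-specific glycoprotein (Psg) and carcinoembryonic antigen-related cell adhesion molecule (Ceacam) genes were taken as the protein-coding genes of chromosomes 1 to 19 of GRCm38 with a symbol of Psg or Ceacam followed by a number. The rule gave 28 of 20661 genes, 13 Psg and 15 Ceacam, and all 28 lie on chromosome 7. Their chromatin state was read in the whole heart of E11.5 mouse embryos, in the right forebrain lobe of E11.5 embryos and in mouse embryonic stem (mES) cells. The embryos were wild type and C57BL/6, each tissue replicate pooled a litter, and the stem cells were a C57BL/6 line that was begun on feeder fibroblasts and then grown with LIF and 2 inhibitors, PD0325901 and CHIR99021. CUT&RUN, in which an antibody guides a nuclease to cut out the DNA around its target, gave 33 libraries. H3K9me2, a histone mark of repressed chromatin, and Lamin B1, a protein of the nuclear lamina, had 3 libraries each in every source, and IgG had 6 in heart, 6 in forebrain and 3 in mES cells.

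From these libraries the authors deposited 9 domain lists, 3 per source, which place stretches of mm10 in whole bins of 10 kb as lamina-associated domain (LAD), KOD or open. The sources used here do not say what KOD stands for. The replicates of a source are merged into 1 list with no score, so the values below carry no replicate error, the read depth under each domain is not known, and no difference between sources can be tested. A gene was given the state with the largest share of its body, and a gene whose body lies mostly outside all 3 lists of a source is given as in no list. Expression was not measured, and whole tissues mix many cell types. Of 5 heart marker genes, 4 were open in heart, against 0 in forebrain and 0 in mES cells. Of 5 forebrain markers, 3 were open in forebrain itself, against 4 in heart and 3 in mES cells, so these markers do not set the forebrain lists apart. Of 5 stem cell markers, 2 were open in heart, 2 in forebrain and 4 in mES cells. Esrrb, the marker not counted as open in mES cells, was 50.2% KOD and 49.8% open there.

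Psg and Ceacam genes belong to the immunoglobulin superfamily. Psg proteins are secreted into the maternal blood by placental trophoblast and act on immune cells, platelets and vessels. The Ceacam family holds membrane receptors of cell adhesion, such as Ceacam1, which carries inhibitory signalling motifs in its tail, as well as small proteins of trophoblast or of single organs. Both families have multiplied separately in rodents and primates, so most mouse members have no direct human counterpart. Placenta was not analysed here, and heart, forebrain and stem cells are not tissues in which Psg proteins are known to be made in quantity.

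All 28 genes were open in forebrain, where 57.4% of all protein-coding genes were open, 16.5% were LAD, 18.9% were KOD and 7.21% were in no list. In heart, 13 were LAD (14.2% of all genes), 7 were open (58.0%), 8 were in no list (9.99%) and 0 were KOD (17.8%). In mES cells, 13 were LAD (16.5% of all genes), 11 were open (63.6%), 2 were KOD (12.9%) and 2 were in no list (7.04%). Among the other 2002 genes of chromosome 7, LAD held 20.1% in heart, 17.3% in forebrain and 28.8% in mES cells, and open held 60.0%, 62.1% and 57.0% in the same order. The heart and mES LAD members were not the same genes, and 6 were LAD in both. Among the 13 Psg genes, 11 were LAD in heart and 7 in mES cells, while 0 were open in heart and 4 were open in mES cells. Among the 15 Ceacam genes, 2 were LAD in heart and 6 in mES cells, and 7 were open in each of these. Most genes lay wholly in 1 state or wholly in no list, 25 of 28 in heart, 27 in forebrain and 25 in mES cells.

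**Figure D1:**
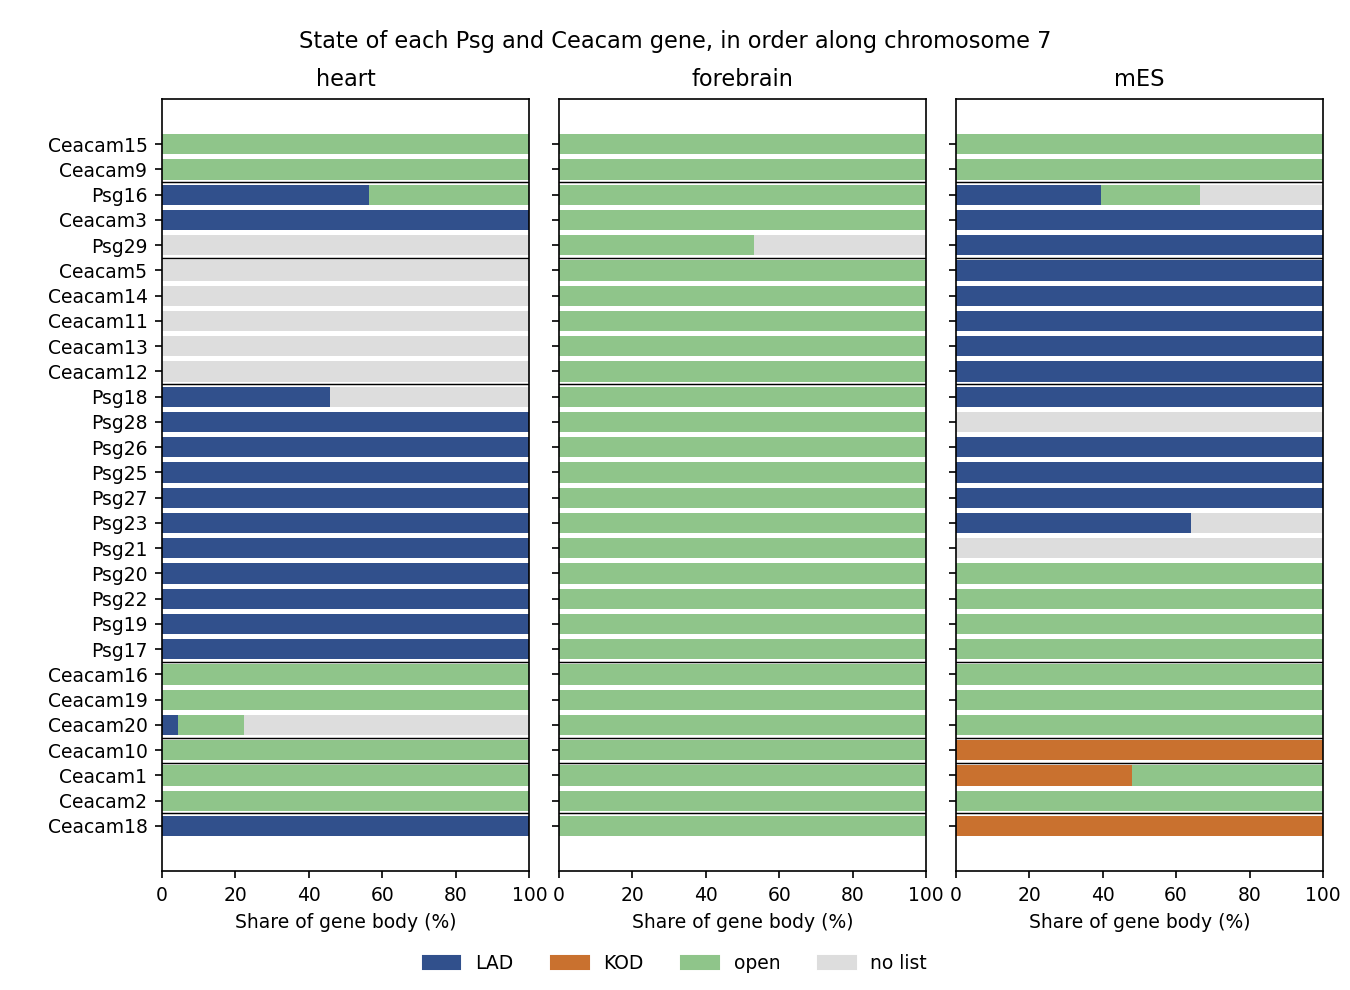
Share of each gene body (x axis, %) in LAD, KOD, open or no list in heart, forebrain and mES cells, with the 28 genes in order along chromosome 7 and black lines between the 8 clusters. Within a bar the states are stacked in the order of the legend, not by position. The forebrain column is open throughout except in Psg29, whose body was 53.1% open and 46.9% in no list.

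Joining genes with at most 200 kb between their bodies gave 8 clusters. The largest held 11 Psg genes, Psg18, Psg28, Psg26, Psg25, Psg27, Psg23, Psg21, Psg20, Psg22, Psg19 and Psg17, over 475.8 kb with no other protein-coding gene between them. In forebrain all of it was open. In heart 91.6% of its bases were LAD and the remaining 8.41% were in no list. In mES cells it was split, with 38.7% LAD, 34.0% open and 27.3% in no list.

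In heart 10 of the 11 genes sat in a single LAD from 18410001 to 18830000, which is 420 kb long and holds no other protein-coding gene. The gene nearest to an end of it was Psg17, 8.4 kb away, and the one deepest inside was Psg23, 196.3 kb from the nearest end. Psg18 lay to the left of it, with 45.8% of its body at the end of a LAD of 250 kb and 54.2% in no list. Its part in no list fell in a gap before a LAD of 20 kb (18360001 to 18380000). With gaps of at most 20 kb filled, heart had 14 LAD members, against 13. The forebrain open domain over the same genes ran from 17890001 to 21620000, and at 3.73 Mb it was second in length among 3730 forebrain open domains. Psg17 lay 923.9 kb from the nearest end of it.

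In mES cells the same row of genes changed state along its length. Psg18 (18345744 to 18355038) was wholly LAD, in a LAD of 70 kb, and its neighbour Psg28 (18422536 to 18432055) was in no list. Psg26, Psg25 and Psg27 (18474577 to 18567305) were wholly LAD, in a LAD of 130 kb. Psg23 (18606343 to 18616501) was LAD over 64.0% of its body, through a LAD of a single 10 kb bin, and in no list over the rest. Psg21 (18646654 to 18656725) was in no list. An open domain of 1340 kb began at 18660001, between Psg21 and Psg20, and Psg20, Psg22, Psg19 and Psg17 (18673985 to 18821591) all lay within it. In mES cells the 7 genes from Psg18 to Psg21 were therefore LAD or in no list and the 4 at the right end were open, while in heart all but Psg18 were LAD and in forebrain all 11 were open.

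**Figure D2:**
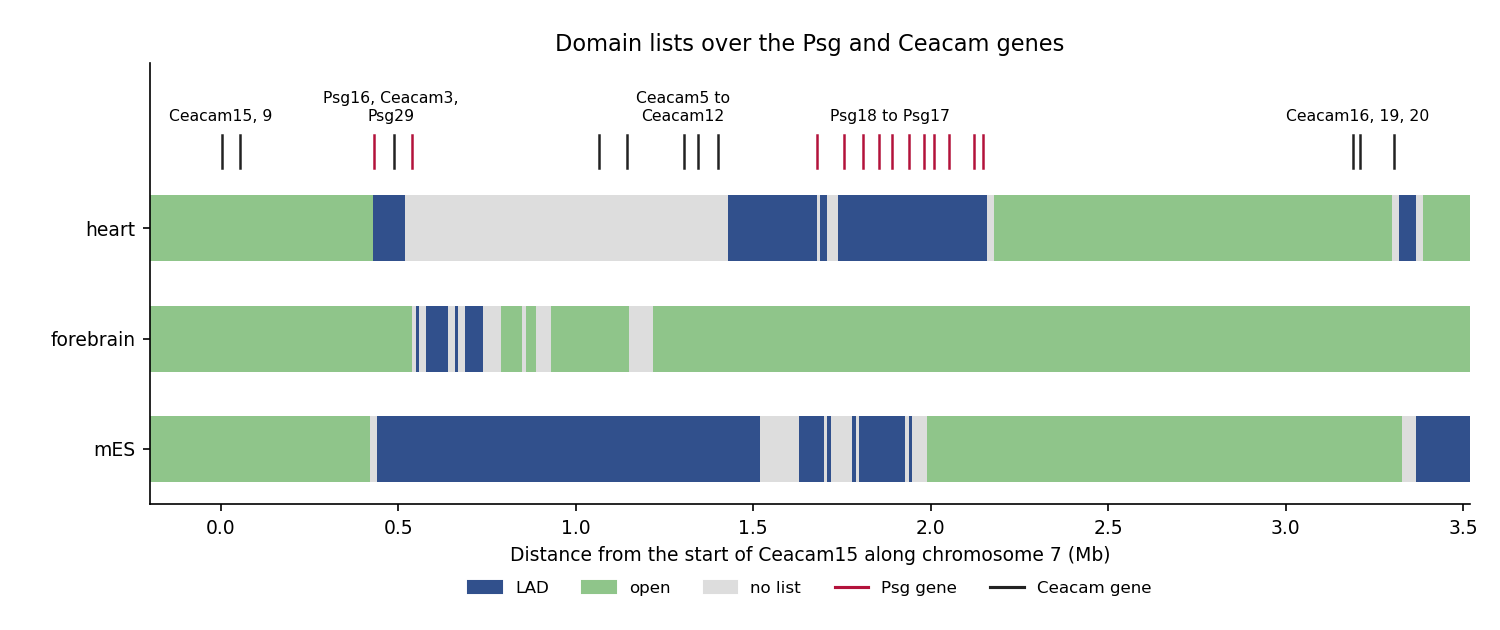
Domain lists of heart, forebrain and mES cells over the first 5 clusters, with distance from the start of Ceacam15 along chromosome 7 in Mb on the x axis, red ticks for Psg genes and black ticks for Ceacam genes. No KOD lies in this window. The block of 11 Psg genes is 91.6% LAD in heart, open throughout in forebrain, and LAD or in no list on the left and open on the right in mES cells.

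Members of this cluster are alike in sequence as well. The 250 bases before the annotated start are shown for 3 of them and for Ceacam5, a gene of another cluster, from RefSeq, GRCm38.p6, on the strand of the gene. Psg23 and its neighbour Psg21 (chr7:18616502-18616751 and chr7:18656726-18656975, both minus strand) are a near-identical pair of which the first was LAD and the second in no list in mES cells. Psg17 (chr7:18821592-18821841, minus strand) is the gene at the right end that was LAD in heart and open in mES cells. Ceacam5 (chr7:17713002-17713251, plus strand) was in no list in heart and LAD in mES cells. Capitals mark a run of 12 bases that these promoters share.
Psg23: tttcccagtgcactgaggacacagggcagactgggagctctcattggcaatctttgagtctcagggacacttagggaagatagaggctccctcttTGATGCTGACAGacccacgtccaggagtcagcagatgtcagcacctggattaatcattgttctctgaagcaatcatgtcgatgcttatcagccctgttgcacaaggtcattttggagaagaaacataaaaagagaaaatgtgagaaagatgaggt
Psg21: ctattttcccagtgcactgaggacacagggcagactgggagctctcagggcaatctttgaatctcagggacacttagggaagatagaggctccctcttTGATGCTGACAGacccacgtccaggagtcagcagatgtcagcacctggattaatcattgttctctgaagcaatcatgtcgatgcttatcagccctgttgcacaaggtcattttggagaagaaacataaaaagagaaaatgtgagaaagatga
Psg17: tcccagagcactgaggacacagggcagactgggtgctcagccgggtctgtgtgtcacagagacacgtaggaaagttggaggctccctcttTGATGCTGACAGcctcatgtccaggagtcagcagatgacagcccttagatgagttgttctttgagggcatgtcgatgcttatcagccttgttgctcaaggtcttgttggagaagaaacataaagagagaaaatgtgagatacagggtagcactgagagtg
Ceacam5: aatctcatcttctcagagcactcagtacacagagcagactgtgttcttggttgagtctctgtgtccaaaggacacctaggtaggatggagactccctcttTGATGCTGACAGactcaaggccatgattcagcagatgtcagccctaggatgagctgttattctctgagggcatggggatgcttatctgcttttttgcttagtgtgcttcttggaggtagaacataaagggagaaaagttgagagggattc
The first pair of sequences is 96.1% identical, Psg23 and Psg17 are 78.5% identical, and Ceacam5 and Psg23 are 70.6% identical, over a global alignment with gaps. The sources used here do not say how reads that match several such copies were placed. The states of single Psg genes and of the cluster as a whole are therefore uncertain to an unknown degree.

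A smaller cluster of 141.7 kb lies to the left and holds Psg16, Ceacam3 and Psg29. Psg16 (17074013 to 17133450), a gene whose transcript is also known from brain, spanned a border in heart and in mES cells. Its body was 56.3% LAD and 43.7% open in heart, 100% open in forebrain, and 39.5% LAD, 33.6% in no list and 26.9% open in mES cells. Ceacam3 (17150197 to 17164966) was wholly LAD in heart, open in forebrain and LAD in mES cells. Psg29 (17203477 to 17215756) was in no list in heart and wholly LAD in mES cells, and it is the gene at which the forebrain open domain from 15920001 to 17210000 ended. On the left, Hif3a, a subunit of the hypoxia-inducible factor family 11.6 kb from Psg16, was open in all 3 sources, and so were all bases of the left flank of 200 kb. The right flank of 200 kb had no listed base in heart, was 65.0% LAD and 35.0% in no list in forebrain, and was 100% LAD in mES cells.

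Between Psg29 and Ceacam5 lie 0.497 Mb without a protein-coding gene, annotated with 5 lncRNA genes, 1 miscellaneous RNA and 3 pseudogenes, 1 of them transcribed. It is the only place between Psg16 and Psg17 where the forebrain had LAD. There the forebrain was 26.1% LAD, 40.9% open and 33.0% in no list, in 4 LAD pieces between 17220001 and 17410000, none over 60 kb long. Heart had no list over all of it, and mES cells had LAD over all of it. Over the whole stretch from Psg16 to Psg17, 1.748 Mb, LAD took 44.2% of bases in heart, 7.44% in forebrain and 75.0% in mES cells. Open took 1.49%, 78.8% and 10.2%, and no list took 54.4%, 13.7% and 14.9%, in the same order.

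Ceacam5, Ceacam14, Ceacam11, Ceacam13 and Ceacam12 form a cluster of 364.8 kb (17713216 to 18077986). Ceacam11 to Ceacam14 are genes of short proteins known from mouse trophoblast. All 5 were in no list in heart, open in forebrain and LAD in mES cells, each over 100% of its body. In mES cells they shared a LAD of 1080 kb (17110001 to 18190000) with Ceacam3 and Psg29. In forebrain Ceacam5 and Ceacam14 lay in an open domain of 220 kb, with Ceacam14 only 4.4 kb from its end, and the other 3 lay in the open domain of 3.73 Mb. Gm5155, the protein-coding gene between Ceacam14 and Ceacam11, had the same states as they did. To the right, Igfl3, a gene of the IGF-like family, was LAD in heart, open in forebrain and LAD in mES cells. Mill1, an MHC class I-like gene between this cluster and the large Psg cluster, was LAD in heart, open in forebrain and in no list in mES cells.

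The large Psg cluster ended sharply on its right in heart. Mill2, another MHC class I-like gene 18.4 kb to the right of Psg17, was open in all 3 sources, and the flank of 200 kb was 85.8% open in heart and 100% open in forebrain and in mES cells. The left flank was 100% LAD in heart, 100% open in forebrain, and 45.0% LAD and 55.0% in no list in mES cells.

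The Ceacam genes outside the Psg stretch were mostly open. Ceacam15 and Ceacam9, a trophoblast gene, lie to the left in a cluster of 54.8 kb, and both genes and all bases of both flanks were open in every source. The neighbours Arhgap35 and Ap2s1, a subunit of the endocytic adaptor AP2, were open in all 3 sources too. Ceacam16, which encodes a protein of the tectorial membrane of the inner ear, and Ceacam19 were also open throughout. Ceacam20 (19965352 to 19991113), a receptor of intestinal epithelium, stood at a border, with 77.6% of its body in no list in heart and all of it open in forebrain and in mES cells. Bcl3, a cofactor of NF-kappaB to the left of Ceacam16, was open in all 3 sources. Nlrp9b, which begins 0.3 kb beyond Ceacam20, was LAD in heart, open in forebrain and in no list in mES cells, and the right flank was 24.4% LAD in heart, 0.0% in forebrain and 75.6% in mES cells.

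KOD was found at 3 Ceacam genes, in mES cells in each case. Ceacam10 (24777167 to 24784656), a secreted protein known from the seminal vesicle, was open in heart and forebrain and KOD in mES cells, in a KOD of 110 kb, 5.3 kb from its end. Its left neighbour Cd177, a neutrophil surface gene, had the same states, while Lypd4 on its right was open in all 3. Ceacam1 (25461702 to 25477647), the adhesion receptor that mouse hepatitis virus uses for entry, was open in heart and forebrain. In mES cells it was 52.0% open and 48.0% KOD, through a KOD of a single 10 kb bin that holds its start. Ceacam2, its close paralog, was open in all 3 sources, as were the neighbours Cxcl17, a mucosal chemokine, and Erich4. Ceacam18 (43634617 to 43649295) lies far to the right, beside and overlapping Siglece, a sialic acid-binding receptor of myeloid cells. Ceacam18 was LAD in heart, open in forebrain and KOD in mES cells over its whole body. Both neighbours, Zfp819 and the tRNA thiolation gene Ctu1, had these same 3 states. The right flank of 200 kb, which holds kallikrein protease genes, had 12 protein-coding genes, of which 10 were LAD and 2 in no list in heart, 10 open and 2 KOD in forebrain, and 12 KOD in mES cells.

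Set against mES cells, heart had another state at 6 of the 18 genes listed in both, against 19.6% of all genes listed in both. Psg20, Psg22, Psg19 and Psg17 were LAD in heart and open in mES cells, a change seen at 0.841% of all genes. Ceacam18 was LAD in heart and KOD in mES cells (1.05% of all genes), and Ceacam10 was open in heart and KOD in mES cells (4.45%). Forebrain had another state than mES cells at 15 of the 26 genes listed in both, against 22.6% of all genes. At 13 of the 26 (50.0%) the state was open in forebrain and LAD in mES cells. This held for 1.6% of all genes listed in both and for 10.4% of other genes of chromosome 7 listed in both. The remaining members that differed, Ceacam10 and Ceacam18, were open in forebrain and KOD in mES cells (6.11% of all genes). Heart had another state than forebrain at 13 of the 20 genes listed in both, against 15.2% of all genes. All 13, which are 65.0% of the 20, were LAD in heart and open in forebrain. This held for 0.978% of all genes listed in both and for 3.24% of other genes of chromosome 7 listed in both. Among other genes of chromosome 7 listed in both, 19.4% differed between heart and mES cells, 28.7% between forebrain and mES cells and 15.9% between heart and forebrain. These 3 pairs share their maps and are not independent of each other, and neighbouring genes share domains, so 28 genes are far fewer than 28 separate events. With 20 kb trimmed from each domain end, 3 genes differed between heart and mES cells and 7 between forebrain and mES cells.

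**Figure D3:**
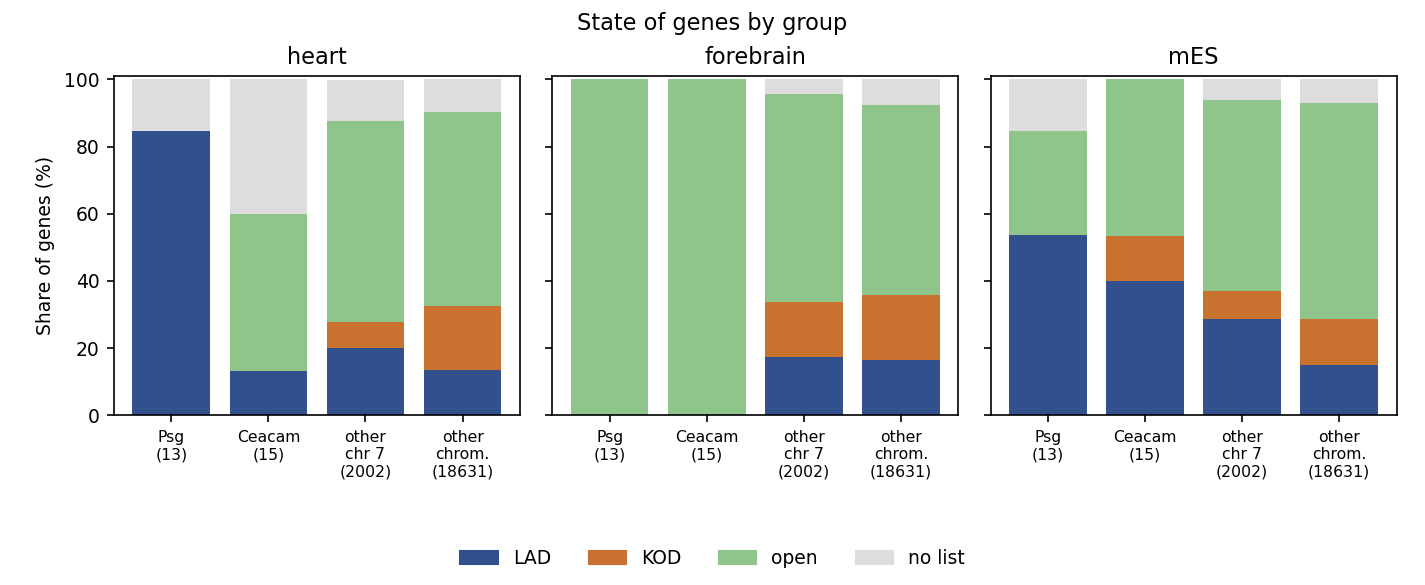
Share of genes (y axis, %) in LAD, KOD, open or no list for Psg genes, Ceacam genes, other genes of chromosome 7 and genes of other chromosomes (number of genes in brackets), in heart, forebrain and mES cells. Psg and Ceacam genes are all open in forebrain, where 62.1% of the other genes of chromosome 7 were open.

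Over the 3 sources the genes fell into 8 patterns. Psg16, Ceacam3, Psg26, Psg25, Psg27 and Psg23 were LAD in heart, open in forebrain and LAD in mES cells, a pattern of 35 genes in all, 22 of them on chromosome 7. Psg29, Ceacam5, Ceacam14, Ceacam11, Ceacam13, Ceacam12 and Psg18 were in no list in heart, open in forebrain and LAD in mES cells, as were 78 genes in all and 62 on chromosome 7. Psg20, Psg22, Psg19 and Psg17 were LAD in heart and open in both forebrain and mES cells (58 genes in all, 14 on chromosome 7). Psg28 and Psg21 were LAD in heart, open in forebrain and in no list in mES cells (20 genes, 11 on chromosome 7). Ceacam15, Ceacam9, Ceacam16, Ceacam19, Ceacam1 and Ceacam2 were open in all 3 sources, the pattern of 43.7% of all genes. Among the 28, Ceacam20, Ceacam10 and Ceacam18 each had a pattern that no other member had. Over all genes, 346 had that of Ceacam20 (in no list in heart and open in forebrain and mES cells), 642 that of Ceacam10 and 62 that of Ceacam18.

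Genes around the Psg and Ceacam genes shared much of the difference between forebrain and the other sources. All 13 members that were LAD in mES cells were open in forebrain, which follows from all 28 members being open there. Among other genes of chromosome 7 that were LAD in mES cells and listed in forebrain, 189 of 528 were open in forebrain (35.8%), as were 91 of 2561 on other chromosomes (3.55%). Chromosome 7 was then divided at the first and last Psg or Ceacam gene, a division chosen after the values were seen. Between Ceacam15 and Ceacam18, a stretch of 27.0 Mb, 142 of 149 such genes were open in forebrain (95.3%). To the left of Ceacam15 it was 38 of 64 (59.4%), and to the right of Ceacam18 it was 9 of 315 (2.86%). Vomeronasal Vmn1r genes made up 78 of the 149, and without them 64 of 71 were open in forebrain (90.1%). To the left of Ceacam15 they made up 19 of the 64, and without them 35 of 45 were open (77.8%), so the stretches differed less when these genes were left out.

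The same holds in part for the 13 members that were LAD in heart, which like all members were open in forebrain. Of other genes between Ceacam15 and Ceacam18 that were LAD in heart and listed in forebrain, 22 of 27 were open in forebrain (81.5%). Over all other genes of chromosome 7 it was 56 of 378 (14.8%). To the left of Ceacam15 it was 11 of 34 (32.4%). Without Vmn1r genes these were 20 of 25 (80.0%) between Ceacam15 and Ceacam18 and 10 of 22 (45.5%) to the left. To the right of Ceacam18 it was 23 of 317 (7.26%), and on other chromosomes it was 106 of 2376 (4.46%). By bases, LAD took 34.5% of chromosome 7 in heart, 25.7% in forebrain and 43.4% in mES cells, against 40.1%, 44.0% and 43.6% of chromosomes 1 to 19. No list took 15.4% of chromosome 7 in heart, 6.87% in forebrain and 6.8% in mES cells. The part of these chromosome-wide shares in the states of the Psg and Ceacam genes was not tested.

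**Figure D4:**
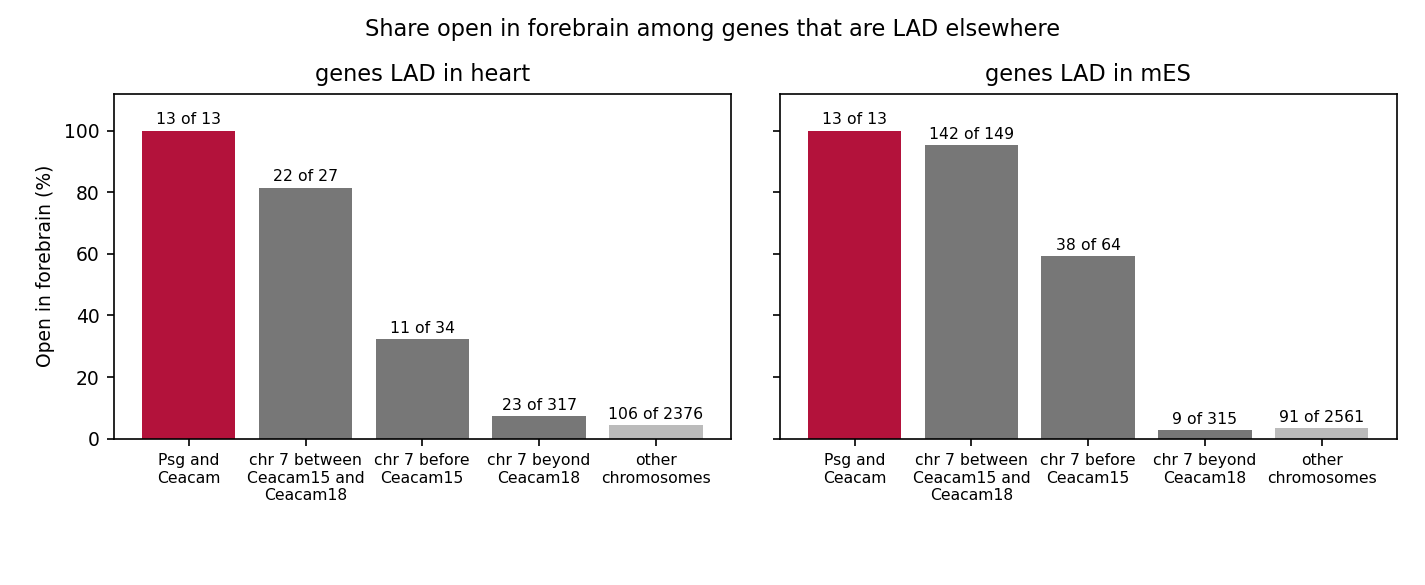
Share open in forebrain (y axis, %) among genes that were LAD in heart (left) or in mES cells (right) and listed in forebrain, for Psg and Ceacam genes, for other genes of chromosome 7 in 3 stretches, and for genes of other chromosomes, with the counts above the bars. The other genes between Ceacam15 and Ceacam18 are close to the Psg and Ceacam genes, with 22 of 27 and 142 of 149 open. The bars of the Psg and Ceacam genes follow from all 28 being open in forebrain.

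The open forebrain domain of 3.73 Mb shows how neighbours differ elsewhere. It holds 119 protein-coding genes, of which 17 are Psg or Ceacam genes and 38 are Vmn1r genes. Of the 17, 10 were LAD, 2 open and 5 in no list in heart, and 8 were LAD, 7 open and 2 in no list in mES cells. All 38 Vmn1r genes were open in heart, and 36 were LAD and 2 in no list in mES cells. Of the 64 other genes, 3 were LAD and 61 open in heart, and 6 were LAD, 56 open and 2 in no list in mES cells. Within this domain 10 of the 13 genes that were LAD in heart were Psg genes, and mES cells had LAD at Psg, Ceacam and Vmn1r genes.

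Promoters were described over the 250 bases before the start, for the 23 of 28 genes with a RefSeq promoter row. CpG dinucleotides were sparse. The ratio of observed to expected CpG had a median of 0.14 in Psg and Ceacam promoters, with values between 0.0 and 0.34, against a median of 0.56 over 16456 promoters. The median GC content was 48.8% in them and 55.6% in all promoters. Among 9 Psg genes other than Psg20 the 36 pairs were 56.4% to 96.4% identical, with a median of 79.0%. Psg20 was 48.1% to 53.4% identical to the others in these windows. Its annotated start is displaced. The longest runs that its window shares with each other Psg window, 12 to 45 bases long, lay 157 to 196 bases further from the start in Psg20, so its low identity and its lack of the marked run of 12 bases do not show a diverged promoter. Pairs of Ceacam promoters had a median of 49.2%, and the highest, Ceacam10 with Ceacam1, was 82.8%. In these fixed windows some Ceacam genes are displaced from each other as well. Ceacam2 and Ceacam1 (49.3%), Ceacam15 and Ceacam9 (47.4%), and Ceacam12 and Ceacam11 (40.6%) share stretches that lie at unlike distances from the start. The low identity of such pairs, and the median that includes them, do not show diverged promoters.

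The letters TATAAA, searched on both strands, were found in 4 of 23 promoters, those of Ceacam9, Ceacam11, Ceacam12 and Ceacam18, in 0 of 10 Psg promoters and in 12.5% of all promoters. The other motifs were chosen after the sequences were seen, so their counts are descriptions. CATAAA was found in 10 of 10 Psg promoters and 13 of 23 in all, against 9.29% of all promoters. GATAAG was found in 9 of 10 Psg promoters and 12 of 23 in all, against 6.25%. The Psg promoter without it is that of Psg20, whose window is displaced, so its absence there does not show a lost motif. The run TGATGCTGACAG was picked as the longest that 8 promoters share, those of Psg18, Psg28, Psg26, Psg25, Psg27, Psg23, Psg21 and Psg17. These 8 matches were thus fixed by its choice. With Ceacam5, which was not used to pick it, the run was found in 9 of 23, and in 10 of 16456 promoters (0.0608%). No match of a motif overlapped a match of another. The promoters with this run include genes of each of 4 patterns, such as Psg28 (no list in mES cells), Psg26 (LAD) and Psg17 (open).

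Prolactin family genes and placental cathepsins were not listed as open in forebrain. The 26 prolactin family genes of chromosome 13, most of which encode placental hormones, were LAD at 23 genes in heart, 25 in forebrain and 26 in mES cells, with the others in no list. Prl2c3 was in no list in heart and forebrain, and Prl2c2 and Prl2c5 were in no list in heart. The other prolactin family genes lie together between 27057570 and 28151595. The 8 placental cathepsins, lysosomal proteases of trophoblast, were LAD at 6 genes in heart, 0 in forebrain and 8 in mES cells, and all 8 were in no list in forebrain. Ctsj, Ctsq and Ctsr were LAD in heart and Ctsm was in no list there. The cathepsins lie together on chromosome 13 (61000179 to 61570170), with no assigned state in forebrain. The counts of both families thus come from few loci. Of 12 regulators or markers of trophoblast, 9 were open in every source, against 43.7% of all genes. Ascl2 and Esrrb were KOD in every source, though Esrrb in mES cells was 50.2% KOD and 49.8% open. Tpbpa, a spongiotrophoblast marker beside the cathepsins (60938492 to 60941936), was LAD in heart, in no list in forebrain and LAD in mES cells.

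Of 8 genes of the Siglec family, receptors that like Ceacam1 carry inhibitory motifs in many members, 4 were open in heart, 7 in forebrain and 5 in mES cells. Of all genes, 58.0% were open in heart, 57.4% in forebrain and 63.6% in mES cells. Siglece was LAD in heart, open in forebrain and KOD in mES cells, and Siglecf was LAD in heart and KOD in forebrain and in mES cells. Siglecg was in no list in heart, open in forebrain and KOD in mES cells, and Cd33 was in no list in heart and open in the other two. Siglecf, Siglecg, Cd33 and Siglece lie together on chromosome 7 (43351341 to 43672044), in a stretch that also holds Ceacam18. Cd22 and Mag, open in every source, also lie between Ceacam15 and Ceacam18. The Siglec counts are thus not separate from the surroundings of the Ceacam genes. Of 11 genes whose proteins are known to bind or follow Psg or Ceacam proteins, 8 were open in heart, 8 in forebrain and 10 in mES cells. These counts stand beside the same shares of all genes, and so few genes do not set the list apart. Cd9, the tetraspanin that mouse Psg17 binds, Ptpn6 and Ptpn11, phosphatases recruited by Ceacam1, and Tgfb1, a growth factor that Psg proteins activate, were open in every source. Tgfb1 also lies in the right flank of the cluster of Ceacam1 and Ceacam2. Itga2b and Itgb3, which encode the platelet integrin that human PSG1 binds, were KOD in heart and open in mES cells, and in forebrain Itga2b was KOD and Itgb3 open. Sdc2, a heparan sulfate proteoglycan, was LAD in heart and in forebrain and open in mES cells, and Sdc3, a related one, was open in heart, KOD in forebrain and open in mES cells.

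**Figure D5:**
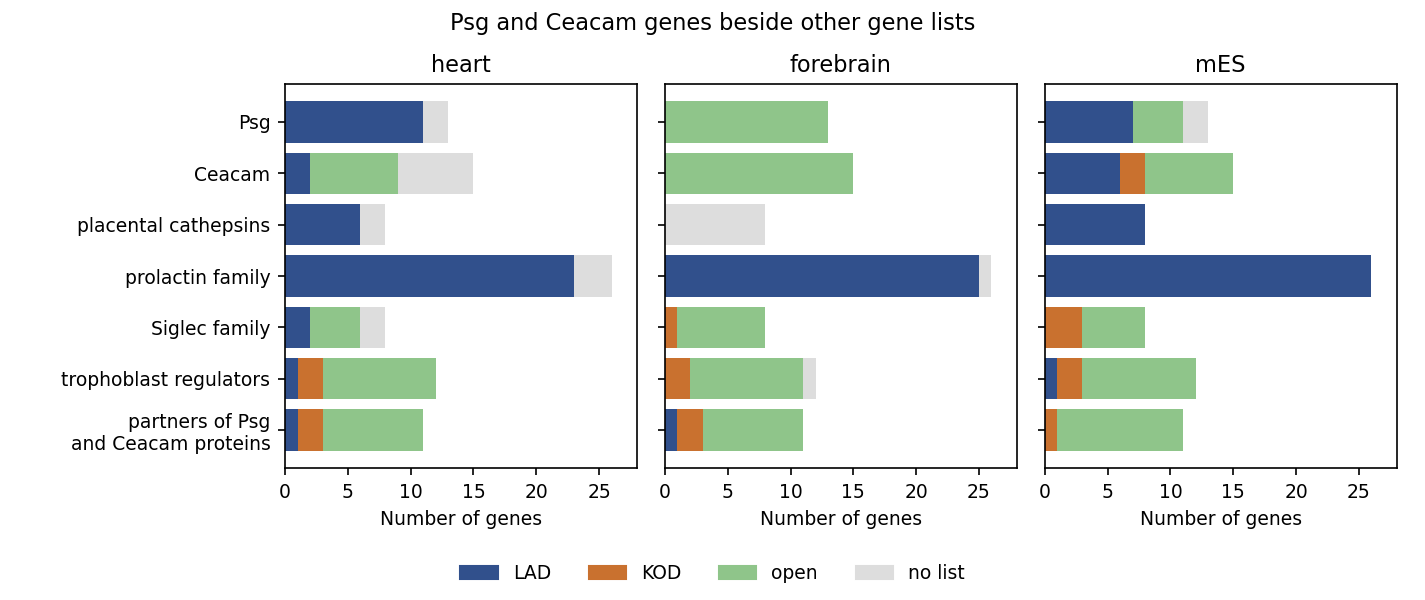
Number of genes (x axis) in LAD, KOD, open or no list for Psg genes, Ceacam genes and 5 other gene lists, in heart, forebrain and mES cells. Prolactin family genes are LAD at 25 of 26 in forebrain, where all Psg and Ceacam genes are open.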

How the data were processed

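The authors deposited 9 domain lists (LAD, KOD and open for heart, forebrain and mES cells), whose values are the start and end of each domain in base pairs, with no score and 1 pooled list per source. The tools named for the reads are Bowtie2 2.5.0, cutadapt 4.2, Trim Galore, deepTools and Picard, on mm10, per the submitters' processing notes. The domain caller, its thresholds, the use of IgG and the treatment of reads with several matches are not given in the sources used here. The authors' signal tracks were not analysed here. Longer or shorter domains can follow from depth or threshold as well as from chromatin.

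Domains were laid on bins of 10 kb with Python 3.11.15, numpy 2.4.6 and pandas 2.3.3, and the overlap code was tested on simulated data. The lists of a source did not overlap. Genes came from RefSeq, GRCm38.p6, the assembly behind mm10, and 23 of the 28 members had a promoter row and a start of transcription. A gene took the state of the largest part of its body, and a tie with no list went to the listed state. Clusters joined members with at most 200 kb between bodies, and flanks were 200 kb. Promoters were aligned globally with Biopython 1.88, with 1 for a match, -1 for a mismatch, -2 to open and -0.5 to extend a gap, and identity is over all aligned columns. Figures were drawn with matplotlib 3.10.9. Protein sequences were not analysed here.

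The members, gene lists and alternatives were chosen with earlier results of these data known. All members are named, as are the nearest protein-coding gene on each side of a cluster and, in the other lists, up to 4 genes that differ between sources. Cd9, Ptpn6, Ptpn11, Tgfb1, Ascl2 and Esrrb were named outside this rule, for their roles or to account for a count. Libraries were grouped by source and antibody, but comparisons rest on the pooled lists and no test was made. The alternatives were the gene midpoint, the start of transcription, at least 90% of the body in 1 state, domain ends trimmed by 20 kb, domains under 100 kb left out, gaps of at most 20 kb filled, other flank lengths and other cluster gaps.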

Additional observations from a re-analysis of the deposited data

How the results depend on the processing

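The counts of 28 open members in forebrain, 13 LAD members in heart and 13 in mES cells moved by less than 1.5 times under every alternative that was run, with ranges of 10 to 14 for LAD in heart and 9 to 13 for LAD in mES cells. By the start of transcription, which only 23 members have, 7 members were open in mES cells, against 11 by the gene body. With 20 kb trimmed from domain ends, 3 members differed between heart and mES cells, against 6, and 7 between forebrain and mES cells, against 15. Trimmed domains left 9 members in no list in mES cells, against 2, and 2 in forebrain, against 0, and these drop out of the comparisons. Ceacam10 and Ceacam18 were among them, since 0 members were then KOD in mES cells, against 2. The gene midpoint and the filling of gaps of at most 20 kb left all 18 counts within 1.5 times of the values given. Joining members with at most 500 kb between them gave 5 clusters, against 8, and the mean LAD share of the flanks was then 0.0% in forebrain, against 4.06%, and 7.56% in mES cells, against 23.5%, with the flanks between the joined clusters then inside a cluster. No paired analysis was possible because each source has 1 list that pools its replicates. Leaving out a replicate could not be done for the same reason. The depth behind each domain is unknown, and its part in the bins of no list was not tested.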
